A study of Mus musculus with 6 samples.

Results

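The genes of the epidermal growth factor (EGF) receptor family described here are the 4 receptor genes Egfr, Erbb2, Erbb3 and Erbb4 and 6 ligand genes, Areg, Ereg, Hbegf, Tgfa, Btc and Egf. A gene was read from the transcript cluster, the set of probes that stands for a gene, whose annotation carries its symbol alone. This gave 9 of the 10 genes, each from 1 transcript cluster, out of 19938 genes on 35557 transcript clusters; for Areg no transcript cluster was matched and it was not analysed here. Total RNA of 3 Nkx2-1-shRNA and 3 empty vector control lines of MLE15 cells was profiled, each line on its own Affymetrix Mouse Gene 1.0 ST array. MLE15 is a mouse lung epithelial line from adenocarcinomas of mice in which the human surfactant protein C promoter drives the large T antigen of a simian virus, so that every line of both groups carries this oncogene. The Nkx2-1-shRNA lines received a mix of 3 lentiviral shRNAs against Nkx2-1, the homeobox factor of lung epithelium, and the control lines received the same vector without an shRNA, which the study calls a non-silencing control. Both were selected with puromycin. The labels give a time of 48 h, and the study describes stable, independently transduced lines. The comparison asks which genes change when Nkx2-1 is reduced.

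EGF receptors are kinases of the cell surface that pair up when a ligand binds and pass the signal on to the Ras, ERK and phosphatidylinositol 3-kinase pathways. The ligands are made as membrane-bound precursors and are set free by metalloproteases, so that an epithelial cell can signal to itself and to its neighbors. In lung epithelium the family takes part in branching, in repair after injury and in adenocarcinoma.

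All values are deposited log2 values, and differences were tested with limma, with adjusted p over all 35557 transcript clusters and a call at an adjusted p under 0.05. Nkx2-1 itself had 7.91, 7.98 and 7.83 in Nkx2-1-shRNA lines, against 8.61, 8.61 and 8.59 in empty vector lines, so that it fell by 0.69 on the log2 scale (SE 0.076, adjusted p = 0.00155; 0.0550 with unequal variances allowed). Array medians ran from 5.10 to 5.14 in Nkx2-1-shRNA lines and from 5.18 to 5.21 in empty vector lines. Smell, taste and related receptor genes, with 1261 transcript clusters, set the background limit of 4.34 (their 95th percentile). Of 5 epithelial markers 4 lay above it, and Cdh1 (E-cadherin) had means of 10.99 in Nkx2-1-shRNA lines, against 11.02 in empty vector lines. Cldn7 lay below it, with 4.21 in Nkx2-1-shRNA and 4.05 in empty vector lines. Among these 5 markers, 1 rose (Krt18 by 0.44 on the log2 scale, adjusted p = 0.00825 by limma), 0 fell and 4 did not pass. Of 8 alveolar type II cell markers, 2 rose (Napsa by 0.58 and Sftpd by 0.44 on the log2 scale), 4 fell and 2 did not pass. Nkx2-1 itself, the target of the shRNAs, is 1 of the 4 that fell. Sftpb, 1 of the 2 that did not pass, had means of 11.83 in Nkx2-1-shRNA and 11.69 in empty vector lines. Sftpc, the surfactant protein C gene and 1 of the 4 that fell, lay below the limit in Nkx2-1-shRNA lines (4.08) and above it in empty vector lines (7.73). Of 20 measured markers of fibroblasts, endothelial cells and leukocytes, both means of 11 lay below the limit, 1 rose (Csf1r, still below the limit) and 1 fell (Tek). Tek had means of 3.77 in Nkx2-1-shRNA lines, against 5.77, above the limit, in empty vector lines (adjusted p = 4.1e-04 by limma). Over all transcript clusters, 7.61% were called higher and 9.24% lower. In a bulk RNA sample, a change in the number of cells that make an mRNA and a change in the amount per cell cannot be told apart.

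Among the measured genes 3 ligand genes and 1 receptor gene rose in Nkx2-1-shRNA lines. Hbegf rose most, to 3.19 times the control level, followed by Tgfa and Ereg, and Erbb2 rose to 1.35 times the control level. Thus 4 of the 9 measured genes were called higher, where 7.61% of all transcript clusters were, and 0 were called lower, where 9.24% were. Among the 23171 transcript clusters above the background limit in at least 1 group, 11.2% were called higher and 13.1% lower. At an unadjusted p under 0.05, limma gave 5 higher and 0 lower, and the methods' t-test with adjustment gave 4 and 0. Over all 35557 transcript clusters, the former gave 4431 higher and 6087 lower, and the latter 2024 and 1983. The groups did not overlap for 5 of the 9, against 34.9% of all transcript clusters. The median log2 fold change of the 9 genes was 0.25, and that of all transcript clusters was −0.03. By limma, Hbegf alone passed the study's own threshold, a change beyond 0.6 on the log2 scale at an adjusted p under 0.0005. There 0.804% of transcript clusters were higher. Hbegf did not pass that threshold by the methods' t-test, the kind of test the study used (adjusted p = 0.00303). Nor did it pass by limma with the replicate number as a block (adjusted p = 0.00243). With any 1 line left out, its limma adjusted p was 7.29e-04 to 9.85e-04.

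**Figure D1:**
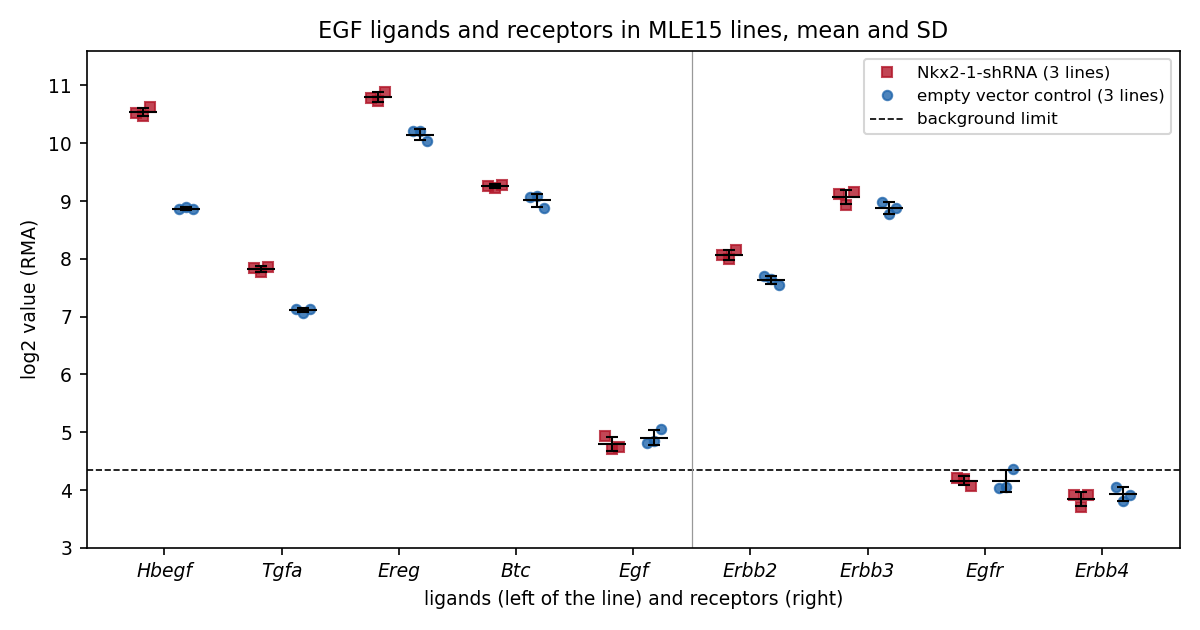
Log2 values (vertical axis) of 5 EGF ligand genes and 4 receptor genes in each Nkx2-1-shRNA line (red squares) and each empty vector control line (blue circles), with the mean and SD of 3 lines; a dashed line marks 4.34, the background limit. Hbegf shows the widest gap, with 10.48 to 10.62 in Nkx2-1-shRNA lines, against 8.86 to 8.89 in empty vector lines, while both means of Egfr and of Erbb4 lie below the limit.

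Hbegf encodes heparin-binding EGF-like growth factor, a ligand of the Egfr and Erbb4 receptors. Its log2 values were 10.52, 10.48 and 10.62 in Nkx2-1-shRNA lines, against 8.86, 8.89 and 8.86 in empty vector lines. Every Nkx2-1-shRNA line lay more than a full log2 unit above every control line. The log2 fold change of Hbegf was 1.67 (SE 0.076, adjusted p = 7.7e-05), a fold of 3.19 with a 95% confidence interval from 2.81 to 3.61.

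Tgfa encodes transforming growth factor alpha, which binds Egfr. Its log2 values were 7.84, 7.77 and 7.85 in Nkx2-1-shRNA lines, against 7.14, 7.07 and 7.14 in empty vector lines, so that the groups did not overlap. The log2 fold change of Tgfa was 0.71 (SE 0.074, adjusted p = 0.00130), or 1.63-fold (95% confidence interval 1.45 to 1.84).

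Ereg encodes epiregulin, a ligand of Egfr and Erbb4. Its log2 values of 10.79, 10.72 and 10.89 in Nkx2-1-shRNA lines lay above the 10.20, 10.21 and 10.03 of empty vector lines. The log2 fold change of Ereg was 0.65 (SE 0.090, adjusted p = 0.00388), or 1.57-fold (95% confidence interval 1.36 to 1.82). The interval of Hbegf lay above those of Tgfa and Ereg, which overlapped each other. At an adjusted p under 0.05 the calls of Hbegf, Tgfa and Ereg held in the 16 alternatives tried at that threshold, with adjusted p no higher than 0.0230, 0.0156 and 0.0382; at the study's stricter threshold those of Tgfa and Ereg did not hold.

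Btc and Egf did not pass the test. Btc encodes betacellulin, a further ligand of Egfr and Erbb4, and had 9.27, 9.22 and 9.28 in Nkx2-1-shRNA lines, against 9.07, 9.08 and 8.88 in empty vector lines. Its groups did not overlap, but the difference of 0.25 (95% confidence interval 0.042 to 0.45) had an adjusted p of 0.104 by limma (0.0507 to 0.245 over the alternatives). Egf, the founding ligand of the family, lay little above the background limit, with 4.94, 4.71 and 4.75 in Nkx2-1-shRNA lines, against 4.82, 4.85 and 5.05 in empty vector lines. The groups of Egf overlapped, and its log2 fold change was −0.11 (95% confidence interval −0.36 to 0.13, adjusted p = 0.548 by limma).

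Among the receptors, Erbb2 encodes the member without a known ligand of its own, which acts as the preferred partner of the others. Its log2 values were 8.07, 7.99 and 8.15 in Nkx2-1-shRNA lines, against 7.70, 7.66 and 7.55 in empty vector lines. The groups of Erbb2 did not overlap, and the log2 fold change was 0.44 (SE 0.085, adjusted p = 0.0148), or 1.35-fold (95% confidence interval 1.18 to 1.56). This call ended without Nkx2-1-shRNA replicate 1 (adjusted p = 0.0583), without Nkx2-1-shRNA replicate 3 (adjusted p = 0.0561) and when the variances were allowed to differ (adjusted p = 0.0532), over a range of 0.00325 to 0.0583. A further transcript cluster that carries Erbb2 together with a second gene symbol was not used.

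Erbb3 encodes the neuregulin receptor whose own kinase is weak and which recruits phosphatidylinositol 3-kinase. It had 9.13, 8.93 and 9.16 in Nkx2-1-shRNA lines, against 8.98, 8.78 and 8.89 in empty vector lines. The groups of Erbb3 overlapped, and its log2 fold change of 0.19 (95% confidence interval −0.038 to 0.42) did not pass (adjusted p = 0.248 by limma).

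Egfr, the receptor that most of these ligands bind, gave no signal above the limit on average in either group. Its log2 values were 4.22, 4.19 and 4.07 in Nkx2-1-shRNA lines, against 4.04, 4.06 and 4.37 in empty vector lines, and the last of these, from empty vector replicate 3, was the only value above 4.34. The log2 fold change of Egfr was 0.0039 (95% confidence interval −0.26 to 0.27, adjusted p = 0.988 by limma). Erbb4, which binds neuregulins and several EGF ligands, stayed below the limit in all lines, with 3.92, 3.71 and 3.91 in Nkx2-1-shRNA lines, against 4.06, 3.81 and 3.92 in empty vector lines. Its log2 fold change was −0.085 (95% confidence interval −0.33 to 0.16, adjusted p = 0.655 by limma). A value below the limit bounds what the probes could show and is no measure of receptor protein.

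**Figure D2:**
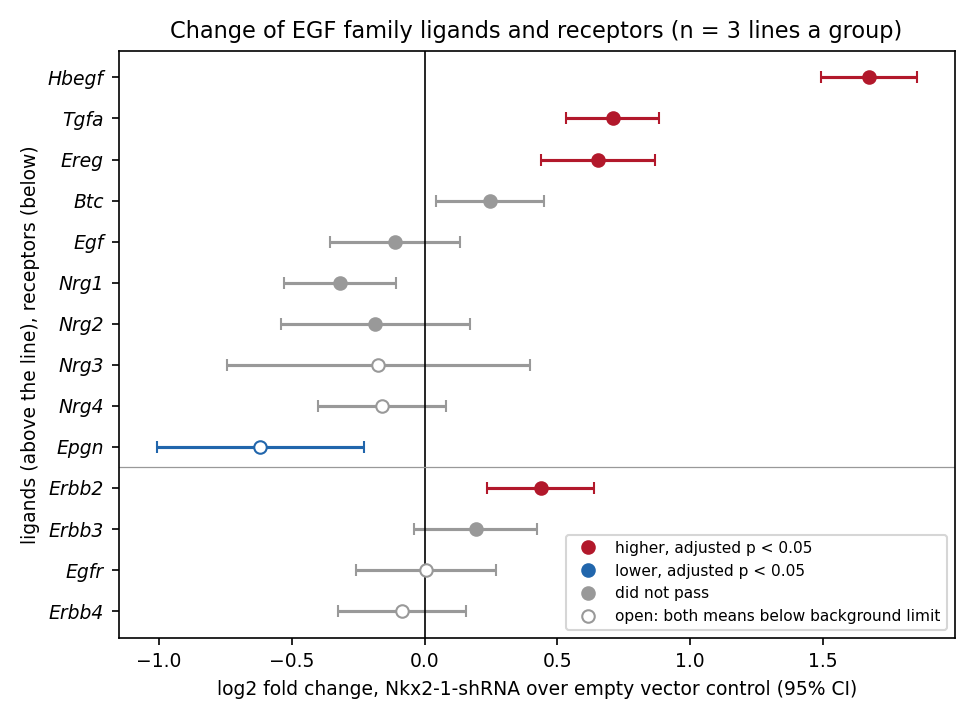
Log2 fold changes (horizontal axis, Nkx2-1-shRNA over empty vector control, n = 3 lines each) of 10 EGF family ligand genes and 4 receptor genes, with 95% confidence intervals. Red genes rose and blue genes fell at an adjusted p under 0.05, from Hbegf at 1.67 to Epgn at −0.62, and open symbols mark genes with both means under the background limit.

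Of 5 further ligand genes of the EGF family, 0 were called higher and 1 lower by limma, where 7.61% and 9.24% of all transcript clusters were. At an unadjusted p under 0.05 limma gave 0 and 2, against 4431 and 6087 of all 35557 transcript clusters. The methods' t-test gave 0 and 0. Both means of 3 of the 5 genes lay below the limit, and with so few genes the counts are no result about the list. Nrg1 encodes neuregulin 1, a ligand of Erbb3 and Erbb4. It had 7.21, 7.10 and 7.33 in Nkx2-1-shRNA lines, against 7.54, 7.59 and 7.47 in empty vector lines, without overlap. Its log2 fold change was −0.32 (adjusted p = 0.0542 by limma), a result that passed in 6 of 16 alternatives. Epgn, the epigen gene, had −0.62 (adjusted p = 0.0455 by limma), but its means of 3.62 in Nkx2-1-shRNA lines, against 4.24 in empty vector lines were below the limit, and the call ended in 10 of 15 alternatives, among them each of the fits without 1 Nkx2-1-shRNA line (adjusted p = 0.133, 0.126 and 0.0821) and those without empty vector replicate 1 or 3 (adjusted p = 0.124 and 0.120). Nrg2, Nrg3 and Nrg4 had log2 fold changes of −0.19, −0.17 and −0.16 and did not pass, and both means of Nrg3 and of Nrg4 lay below the limit.

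Tgfa and Erbb2 are shown with the 250 bases before their start sites because both rose and both have an entry in the RefSeq promoter table (GRCm38.p6), which held 7 of the 10 genes. That table had no entry for Hbegf and Ereg, which also rose, or for Erbb3, so their windows were not examined. The capitals mark the core of the NKX2-1 binding site named by the study, CAAG or, on the other strand, CTTG.
Tgfa, chr6:86194972-86195221, plus strand: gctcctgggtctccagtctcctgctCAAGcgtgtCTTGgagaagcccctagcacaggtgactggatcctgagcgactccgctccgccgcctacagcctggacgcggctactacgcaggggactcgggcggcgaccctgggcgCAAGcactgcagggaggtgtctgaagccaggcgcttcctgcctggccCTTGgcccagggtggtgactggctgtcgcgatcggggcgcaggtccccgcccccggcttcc
Erbb2, chr11:98412234-98412483, plus strand: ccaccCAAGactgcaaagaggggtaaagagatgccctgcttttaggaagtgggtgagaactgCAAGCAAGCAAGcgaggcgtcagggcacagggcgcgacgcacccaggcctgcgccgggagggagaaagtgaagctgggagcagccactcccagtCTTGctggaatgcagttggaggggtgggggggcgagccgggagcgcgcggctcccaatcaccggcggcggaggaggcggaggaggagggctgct
The window of Tgfa holds 4 cores and that of Erbb2 holds 5, of which 3 follow each other directly. Of all 32851 promoter windows of this length, 86.6% hold at least 1 core, 18.3% hold 4 or more and 7.68% hold 5 or more. Among the genes that did not pass, the window of Egfr holds 2 cores, that of Btc 2, that of Erbb4 1 and those of Egf 4 and 1. A match to 4 letters is a description of the sequence, and binding was not measured in these files.

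Epgn, Ereg, Areg and Btc follow each other in this order on chromosome 5 with no other protein-coding gene between them, and where measured their log2 fold changes differed in sign, at −0.62 for Epgn, 0.65 for Ereg and 0.25 for Btc. Each gene was set beside the 10 nearest genes above the background limit on either side. Of all transcript clusters above that limit in at least 1 group, 11.2% were called higher and 13.1% lower. Around Hbegf, on chromosome 18, 1 of 20 neighbors rose and 0 fell by limma, and their median log2 fold change was 0.054 against 1.67 for Hbegf. Around Tgfa 4 of 20 rose and 0 fell (median 0.13), around Ereg 2 rose and 2 fell (median 0.079), and around Erbb2 3 rose and 4 fell (median −0.083). Around Erbb3, on chromosome 10, 0 of 20 neighbors rose, 10 fell and the median was −0.40, beside 0.19 for Erbb3 itself. The part of these stretches in the values of single genes was not tested.

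**Figure D3:**
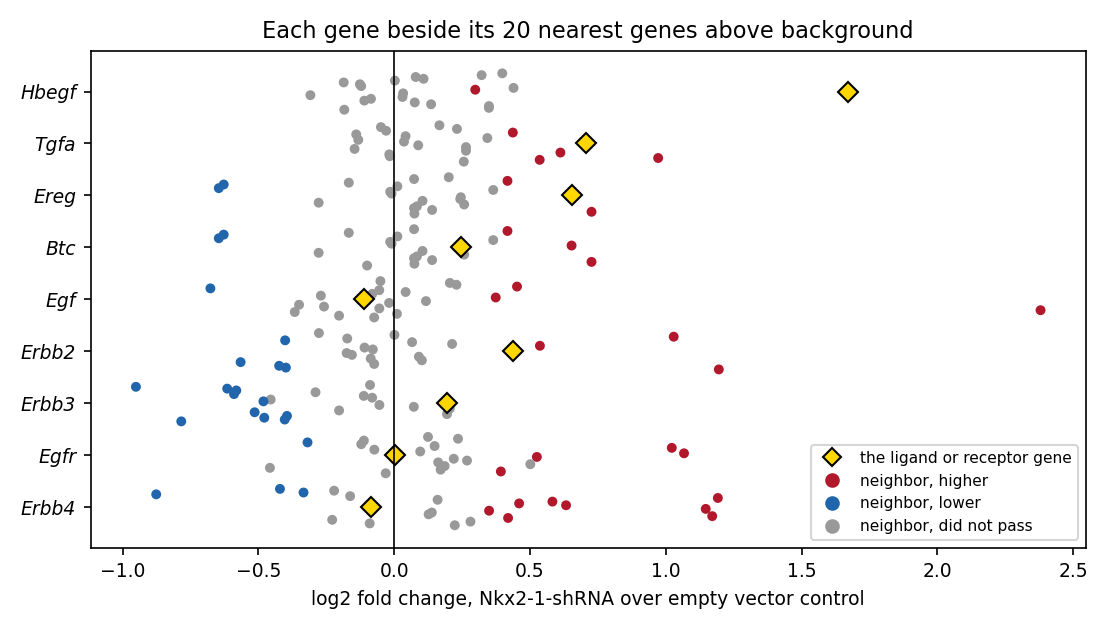
Log2 fold changes (horizontal axis, Nkx2-1-shRNA over empty vector control) of the 9 ligand and receptor genes (diamonds) and of the 20 nearest genes above background around each (points; red rose, blue fell, grey did not pass). Hbegf at 1.67 lies to the right of all its neighbors, whose median is 0.054, and Erbb3 at 0.19 has neighbors with a median of −0.40, of which Rab5b at 0.20 lies farthest right.

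Of 12 genes that release the ligands or control their release, 11 were measured, of which 2 rose and 2 fell. These are 18.2% each, where 11.2% and 13.1% of transcript clusters above background were called, and with so few genes the counts are no result about the list. The median log2 fold change of 0.0027 was the value of Timp3, the gene of a protease inhibitor. Its means, 3.94 in Nkx2-1-shRNA and 3.94 in empty vector lines, lay below the limit. Adam10, a protease that sheds Egf and Btc, had 9.56, 9.46 and 9.58 in Nkx2-1-shRNA lines, against 8.91, 8.76 and 8.78 in empty vector lines, and rose by 0.72 on the log2 scale (adjusted p = 0.00186). Rhbdf1, which encodes the inactive rhomboid protein that escorts Adam17 to the cell surface, rose by 0.58 (adjusted p = 0.00482; 0.103 with unequal variances allowed). The metalloprotease genes Adam9 and Adam15 fell by 0.85 (adjusted p = 6.1e-04) and 0.39 (adjusted p = 0.0107). Adam17, the main sheddase of Hbegf, Tgfa and Ereg, had means of 9.31 in Nkx2-1-shRNA lines, against 9.54 in empty vector lines, and its difference of −0.23 did not pass (adjusted p = 0.157 by limma).

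Of 18 genes that restrain the receptors or remove them from the surface, 4 rose (22.2%) and 3 fell (16.7%), against the 11.2% and 13.1% above background, and the median was 0.0049. Ptprk, a receptor phosphatase that acts on Egfr, fell by 0.71 (adjusted p = 0.00308), and Rnf41, a ubiquitin ligase for Erbb3, fell by 0.62 (adjusted p = 0.00384; 0.0923 with unequal variances allowed). Rnf41 is also among the 20 neighbors of Erbb3 described above, of which 10 fell. Lrig2, of a family of receptor inhibitors, and Eps15, an endocytic adaptor, rose by 0.44 (adjusted p = 0.0149) and 0.42 (adjusted p = 0.0256). Both of these calls ended without Nkx2-1-shRNA replicate 1, Nkx2-1-shRNA replicate 3 or empty vector replicate 2 (adjusted p between 0.0503 and 0.0866). That of Eps15 also ended without Nkx2-1-shRNA replicate 2 or empty vector replicate 3 (adjusted p = 0.0535 and 0.0621). Both ended too with unequal variances allowed (adjusted p = 0.105 for Eps15). That of Eps15 ended as well by the methods' t-test and with the replicate number as a block. In all, Lrig2 lost its call in 4 of 16 alternatives and Eps15 in 8. The count of 4 was 0 without Nkx2-1-shRNA replicate 1, Nkx2-1-shRNA replicate 3 or empty vector replicate 2, 1 without Nkx2-1-shRNA replicate 2 and 2 without empty vector replicate 3, 7 after median centring, and 1 with the replicate number as a block. Errfi1, which encodes an inhibitor that binds the kinase domain of the receptors, had means of 9.96 in Nkx2-1-shRNA lines, against 9.71 in empty vector lines without overlap, a difference of 0.25 (adjusted p = 0.0755 by limma) that passed in 5 of 16 alternatives.

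Among the adaptors and kinases that relay the signal, 23 of 28 genes were measured, and 2 rose (8.70%) and 4 fell (17.4%), shares near the 11.2% and 13.1% of transcript clusters above background (median 0.015). Plcg1 (phospholipase C gamma) fell by 0.61 (adjusted p = 0.00298), Akt1 by 0.54 (adjusted p = 0.00475) and the kinase subunit gene Pik3cb by 0.47 (adjusted p = 0.0151), while Map2k1, which encodes the kinase MEK1, rose by 0.45 (adjusted p = 0.0303). Of these, Akt1 held its call in the 16 alternatives at an adjusted p under 0.05, Plcg1 lost it only with unequal variances allowed (adjusted p = 0.0767), and Pik3cb and Map2k1 lost it in 4 and 6. Pik3cb lost it without Nkx2-1-shRNA replicate 1, Nkx2-1-shRNA replicate 2 or empty vector replicate 2 (adjusted p up to 0.0620), and Map2k1 without Nkx2-1-shRNA replicate 1 or 2 or empty vector replicate 1 or 3 (adjusted p = 0.108, 0.0980, 0.0866 and 0.0826). Without Nkx2-1-shRNA replicate 1 the relay genes gave 0 higher and 2 lower, without Nkx2-1-shRNA replicate 2 1 and 2, without empty vector replicate 2 1 and 2, and the count of genes that rose was 1 without Nkx2-1-shRNA replicate 3 and 0 without empty vector replicate 1 or 3.

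Feedback inhibitors of the ERK pathway, which damp the signal downstream of the receptors, included 2 of 10 that rose (20.0%) and 4 that fell (40.0%), against 11.2% and 13.1% of transcript clusters above background, with a median of −0.11. Spry1 (Sprouty 1) had 6.73, 6.75 and 6.69 in Nkx2-1-shRNA lines, against 7.67, 7.71 and 7.42 in empty vector lines, and fell by 0.88 (adjusted p = 0.00171). Spred1, a Sprouty-related inhibitor of Ras, fell by 0.69 (adjusted p = 0.00158), and the phosphatase gene Dusp4 fell by 0.66 (adjusted p = 0.00527). When the variances were allowed to differ, the calls of Spry1 and Dusp4 ended (adjusted p = 0.0919 and 0.0810), and the count of genes that fell was 1. Spry4 rose by 0.42 (adjusted p = 0.0415), a call that ended in 9 of 16 alternatives, which were the fits without any 1 line (adjusted p between 0.0533 and 0.124), the replicate block (0.0810), the methods' t-test (0.104) and unequal variances (0.168); without any 1 line the count of genes that rose was 0 or 1. Dusp6, the phosphatase of ERK itself, had 10.76 in Nkx2-1-shRNA lines, against 10.86 in empty vector lines on average, with overlap and an adjusted p of 0.589 by limma.

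Of 17 genes that growth factors and ERK induce, 9 rose (52.9%) and 3 fell (17.6%), against 11.2% and 13.1% of transcript clusters above background, with a median log2 fold change of 0.42. Plaur, the urokinase receptor gene, had 8.47, 8.49 and 8.63 in Nkx2-1-shRNA lines, against 7.14, 7.50 and 7.26 in empty vector lines, and rose by 1.23 (adjusted p = 7.97e-04). The immediate early genes Fos and Ier3 rose by 1.11 (adjusted p = 0.00117) and 1.05 (adjusted p = 0.00513), and Myc, a driver of growth, by 0.95 (adjusted p = 9.4e-04). Egr1, an early growth response factor, had 8.20, 8.04 and 8.29 in Nkx2-1-shRNA lines, against 7.63, 7.58 and 7.74 in empty vector lines, and rose by 0.52 (adjusted p = 0.0118). The 3 that fell were Etv4, Fosb and Egr2, with log2 fold changes of −0.43, −0.37 and −0.34 (adjusted p = 0.0107, 0.0286 and 0.0470 by limma). Without Nkx2-1-shRNA replicate 1 the call of Egr1 ended (adjusted p = 0.0505), the count of genes that rose was 5 and the count of genes that fell was 0. The count of genes that fell was 1 without Nkx2-1-shRNA replicate 2 or 3 or empty vector replicate 1 or 3 and after median centring. When the variances were allowed to differ the counts were 1 and 1, and Plaur, Fos, Ier3 and Egr1 lost their calls (adjusted p = 0.0501, 0.0663, 0.130 and 0.0800). All of these genes respond to serum, stress and other receptors as well, and ERK activity was not measured in these files.

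**Figure D4:**
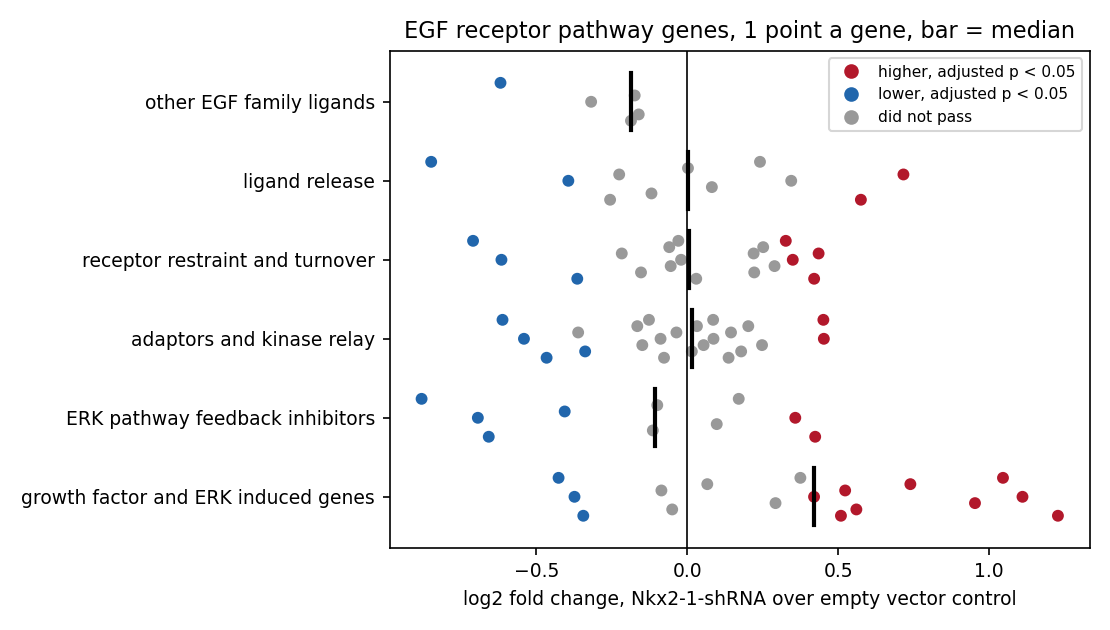
Log2 fold changes (horizontal axis, Nkx2-1-shRNA over empty vector control) of the genes of 6 groups around the EGF receptors, 1 point a gene, with red for genes that rose and blue for genes that fell at an adjusted p under 0.05 and a black bar for the median. The induced genes have a median of 0.42 and reach 1.23 (Plaur), and the feedback inhibitors have a median of −0.11 and reach −0.88 (Spry1).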

How the data were processed

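RNA of 3 Nkx2-1-shRNA and 3 empty vector control lines of MLE15 cells was hybridized to 6 Affymetrix arrays of the type Mouse Gene 1.0 ST. Per the methods and the submitters' processing notes, the authors ran Robust Multi-Array Analysis in Expression Console 1.1. The deposited values are therefore background-corrected, quantile-normalized log2 values, which draws low genes together and compresses large changes. The genome build was not given in the sources used here.

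Of 35557 transcript clusters, 21789 carried 1 gene symbol in the platform annotation, 1621 several, and 12147 were unnamed here. Where a gene had several, that of highest mean was taken. The fit used limma 3.58.1 in R 4.3.3 (default prior, 4 residual degrees of freedom) and Benjamini-Hochberg adjustment. With 3 lines in each group, the smallest p of an exact permutation test is 0.1. An array gives no counts, so that the number of arrays limits the precision (median SD among the lines of 1 group, 0.13). The fit was tested on simulated data. The positions that order neighboring genes come from RefSeq (GRCm38.p6), and the gene symbols from the platform annotation.

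The genes, lists and tests were chosen with earlier results of these data known. Named were the 9 measured genes, all 5 other ligand genes, Nkx2-1, and of each list the best-known gene (not reported here for the relay genes) and the up to 4 that changed most among those with an adjusted p under 0.05. Cdh1, Cldn7, Krt18, Sftpc, Napsa, Sftpd, Sftpb, Rab5b, Csf1r, Tek, Timp3, Etv4, Fosb and Egr2 fall outside this rule and were chosen after their values were seen. Lists are described by counts and medians. Alternatives were the methods' t-test, Welch's form of it for unequal variances, array weights, a robust prior with trend, repeated quantile normalization, median centring, filters by background or gene symbol, each line left out in turn, a block for the replicate number, a mean over all transcript clusters of a gene, the study's threshold and the 90th percentile for background.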

Additional observations from a re-analysis of the deposited data

How the results depend on the processing

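The count of ligand and receptor genes called higher was 3 to 4 with 1 line left out and 1 at the study's threshold by limma. Under every alternative 0 were called lower. Hbegf, Tgfa and Ereg kept their direction and call in the 16 alternatives at an adjusted p under 0.05. At the study's threshold only Hbegf did by limma, and it did not by the methods' t-test. Erbb2 kept its direction and lost its call in 3 of the 16. The log2 fold change of Egfr changed sign with 1 line left out (−0.053 to 0.11; −0.023 without Nkx2-1-shRNA replicate 1, −0.012 without Nkx2-1-shRNA replicate 2, −0.053 without empty vector replicate 1, −0.045 without empty vector replicate 2), as did that of Nrg3 (−0.44 to 0.055). With the 90th percentile the background limit was 3.96, which Egfr exceeded in all 6 arrays and Erbb4 in 1; the cause was not tested. Same-numbered lines showed correlations of 0.058, 0.14 and −0.034 in their deviations from the group means. The labels give these lines a shared number and no pairing, and whether they were handled together was not tested. With the replicate block 4 genes were higher and 0 lower, and over all transcript clusters 2269 and 2775 against 2705 and 3284. The methods' t-test gave 2024 and 1983, a test for unequal variances 832 and 760, and the fits with 1 line left out 1690 to 2225 and 1815 to 2750. Of the calls 45.2% were higher, against 59.5% after median centring, which moved every difference up by 0.080.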
